A study of Mus musculus with 6 samples.

Results

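The genes of the unfolded protein response and the integrated stress response described here are 10 genes out of 25112 that could be named in a comparison of mouse keratinocytes with and without added miR-148a: Hspa5, Hsp90b1, Dnajb9, Herpud1, Xbp1, Atf4, Ddit3, Trib3, Asns and Chac1. They were taken by symbol, and each was represented by the row (RefSeq transcript) with the highest base mean, which is the mean normalized read count over the libraries compared. Primary epidermal keratinocytes of wild-type C57BL/6 pups, 1 to 3 days old, were grown in medium with 0.05 mM calcium. One group was transfected with the control small RNA miR-Control (3 libraries) and the other with pro-miR-148a (3 libraries), at 200 nM, and RNA was collected after 48 h for RNA sequencing. The labels do not tell if the 3 libraries of a group are separate cultures or animals. The titles of the pro-miR-148a libraries give replicates 1 to 3 but a sample number of 1, 2 and again 1, while the controls are numbered 1, 2 and 3; whether a pair of the pro-miR-148a libraries shares its source, or the number is a slip, is not stated. If libraries share a source, p-values measure only the spread between these libraries, which may then be technical. The study asked which transcripts differ when miR-148a is raised.

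The unfolded protein response adjusts the endoplasmic reticulum (ER), where secreted and membrane proteins fold, to its load of unfolded protein. The sensors IRE1 (gene Ern1), PERK (Eif2ak3) and ATF6 act through the transcription factors XBP1, ATF4 and cleaved ATF6, which raise chaperones, degradation factors and amino acid enzymes. The integrated stress response is the branch in which several kinases, PERK among them, phosphorylate the translation factor eIF2; general translation then falls while ATF4 is translated. Much of this control acts on splicing, translation or protein cleavage and is not seen in a transcript's level. In the epidermis, keratinocytes that differentiate make large amounts of secreted and membrane material, and parts of this response are known to be active in them.

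The sequences below show where miR-148a could pair with these genes and which stress elements their promoters carry. The seed of a microRNA, bases 2 to 8 and in capitals here, pairs with matching sites in a 3' untranslated region (UTR).
mmu-miR-148a-3p: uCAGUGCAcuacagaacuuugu

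A site that pairs with the whole seed reads TGCACTG (a 7mer-m8). Where an A comes next it is an 8mer, and GCACTGA alone is a 7mer-A1. Searched in each gene's longest 3' UTR in GENCODE M21, 3 of the 10 genes carry a site, shown in capitals: Hspa5 an 8mer at base 2 of 1434, Hsp90b1 a 7mer-m8 at base 106 of 262, and Ddit3 a pair of overlapping 7mer-m8 sites at bases 77 and 82 of 197. The 7 others hold none of these letters. The sites of Ern1, of the sensor IRE1, and of Cth, an enzyme that makes cysteine, are shown because both genes changed by more than 2-fold. Of the listed genes described below, Atf3, Nupr1, Creb3l1 and Hsp90aa1 also changed by more than 2-fold, and their UTRs hold none of these sites. Positions count from 1 at the UTR's start.
Hspa5: gTGCACTGAtctgctagagctgta
Hsp90b1: cttctccccTGCACTGtaaaatgt
Ddit3: atgtgacccTGCACTGCACTGcacat
Ern1: gcagcttcaTGCACTGCACTGActgg
Cth: acgcagaacTGCACTGAatatttt

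Promoters (250 bases before to 50 after the start, RefSeq, GRCm38.p6) were available for all 10 genes and were searched on both strands. The ER stress response element, CCAAT and CCACG with 9 bases of any kind between them, is bound by ATF6 together with the factor NF-Y. It is held by 0.119% of all 32851 promoters, and among the 10 genes by those of Hspa5 and Hsp90b1, chaperones of the ER. The related element II, ATTGG and CCACG with 1 base between them, is held by 0.0365% of promoters and by that of Herpud1. The C/EBP-ATF response element, TGATGNAA, is bound by ATF4 with a C/EBP partner. It is held by 3.97% of promoters and by those of Herpud1, Trib3, Asns and Chac1. That of Trib3 lies after the start and is not shown. Matches are in capitals, and those on the other strand read reversed and complemented (CGTGG to ATTGG, or TTGCATCA).
Hspa5, ER stress response element, chr2:34772013-34772055, plus strand: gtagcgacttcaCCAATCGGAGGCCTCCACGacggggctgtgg
Hsp90b1, ER stress response element on both strands, chr10:86705521-86705668, minus strand: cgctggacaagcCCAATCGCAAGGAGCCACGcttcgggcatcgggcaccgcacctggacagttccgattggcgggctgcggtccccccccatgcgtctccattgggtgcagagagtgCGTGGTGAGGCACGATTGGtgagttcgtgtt
Herpud1, ER stress response element II, chr8:94386365-94386399, plus strand: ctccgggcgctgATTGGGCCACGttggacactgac
Herpud1, C/EBP-ATF response element, chr8:94386305-94386336, plus strand: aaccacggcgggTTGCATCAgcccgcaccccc
Asns, C/EBP-ATF response element, chr6:7693213-7693244, minus strand: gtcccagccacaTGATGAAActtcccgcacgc
Chac1, C/EBP-ATF response element, chr2:119351037-119351068, plus strand: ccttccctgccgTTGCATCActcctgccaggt

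All values come from the authors' deposited table, which gives a base mean, a log2 fold change with its standard error (SE), and raw and adjusted p-values for each transcript, and no value per library. The spread of a level over libraries and the depth of a library are therefore unknown, and errors are the authors' SE or a 95% interval of 1.96 SE. Which group is the numerator of the fold changes is not stated. They are read here as control over miR-148a, following the order of the groups in the table's title, and turned, so that a positive value means more transcript with miR-148a. Every direction below rests on that reading and would turn with it. In this reading the 433 tested genes with an 8mer had a median change of -0.10 on the log2 scale, and 27.9% of them fell and 11.5% rose; of the 7638 genes with none of the 3 sites 16.3% fell and 18.7% rose, with a median of 0.01. Among keratinocyte markers Krt5 had a base mean of 630448 and Dsp of 269425 per the authors' deposited table, while all rows of Trp63 were listed at 0. Krt14, Itga6 and Col17a1 were hardly counted, at base means of 40.27, 6.50 and 32.04 per the authors' deposited table.

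Only part of the response was measured. Of the 10 genes, 6 had an adjusted p-value, Atf4 had a fold change without one, and Hspa5, Herpud1 and Xbp1 were listed at 0 in every row of the authors' deposited table. Among the 10, the well counted genes were those with 1 row. The 5 genes with 1 row (Hsp90b1, Dnajb9, Trib3, Asns and Chac1) had base means of 2209 to 19344. The 5 genes with 2 rows had base means of at most 14.1, and 8 of their 10 rows were listed at 0. A gene with 2 rows can be well counted too: the sensor gene Eif2ak3 had 2 in the authors' deposited table and a base mean of 1302. Over all named genes, 50.5% of the genes with 1 row were tested, 31.5% of those with 2 rows and 29.8% of those with 3 or more; whether the handling of reads shared by transcripts of 1 gene plays a part was not tested. Hspa5 encodes BiP, the most abundant chaperone of the ER, which cells cannot do without, so its 0 is no measurement of absence. The 2 rows of Xbp1 (NM_001271730 and NM_013842) were both at 0, and splicing of Xbp1 by IRE1 cannot be read from them.

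**Figure D1:**
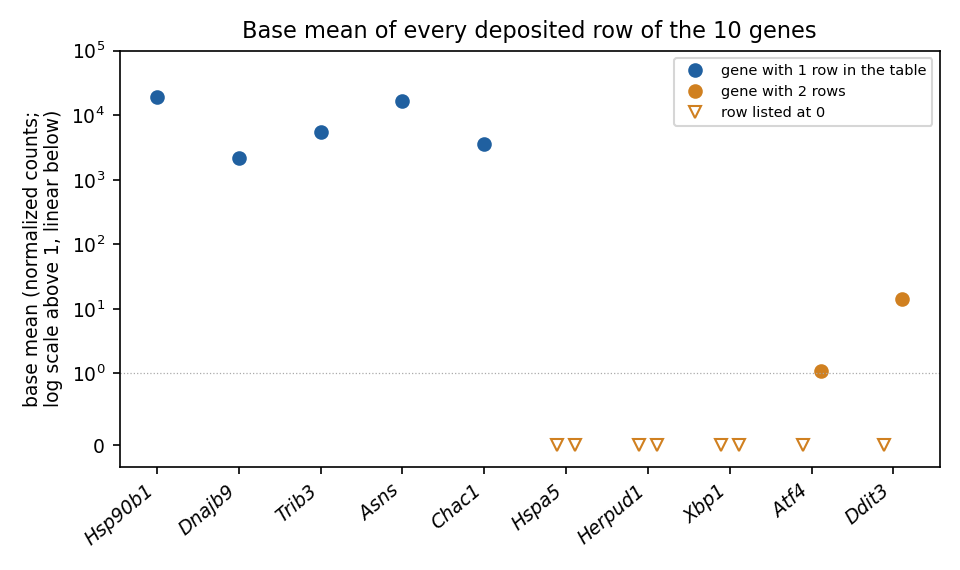
Base mean of each of the 15 deposited rows of the 10 genes (vertical axis, normalized counts, logarithmic above 1 and linear below), with genes of 1 row in blue, genes of 2 rows in orange and rows listed at 0 as open triangles. The 5 genes with 1 row lie between 2209 and 19344, and no row of the other genes exceeds 14.1.

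Among the measured genes changes were small and went both ways. By the authors' adjusted p at 0.05 (DESeq2 Wald test), 2 genes rose, 3 fell and 1 did not pass, while 33.5% of all 11038 tested genes passed (16.7% higher and 16.8% lower). Since genes counted often pass more easily, 49.7% of the 6423 genes at base means of 100 or more passed. The 5 changes were of 1.19-fold to 1.49-fold, and none reached 1.5-fold, which 14.8% of all tested genes did. In bulk RNA, fewer cells of a type and less RNA per cell cannot be told apart.

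**Figure D2:**
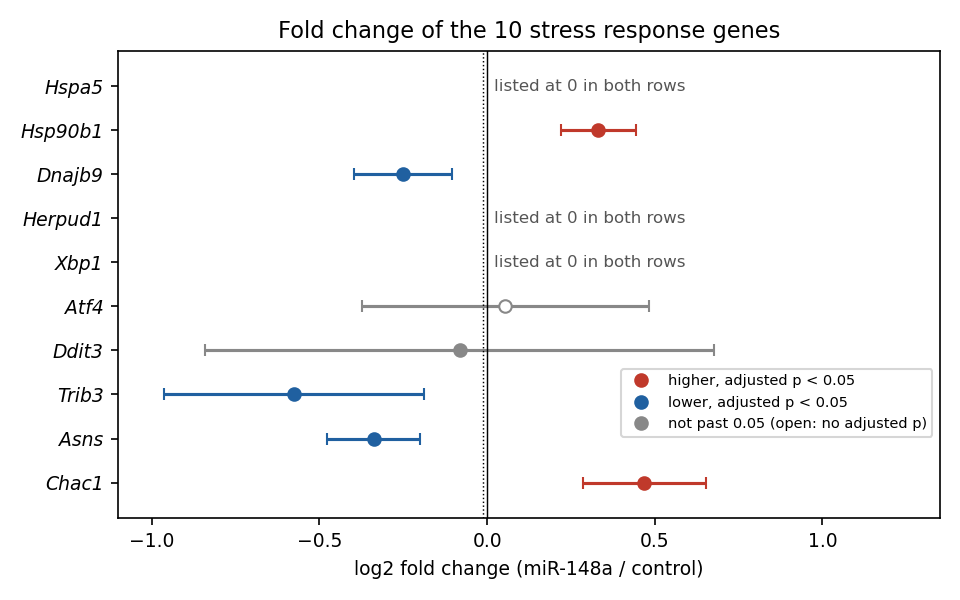
Log2 fold change of each gene (horizontal axis, miR-148a over control, from the authors' deposited table) with bars of 1.96 SE; red is higher and blue lower at an adjusted p under 0.05, grey is not past it, and the open point has no adjusted p. The dotted line is the median of all tested genes, -0.01. Hsp90b1 and Chac1 lie to the right of 0, Dnajb9, Trib3 and Asns to the left, and Hspa5, Herpud1 and Xbp1 have no value.

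Of the ER chaperones, Hsp90b1 was measured best. It encodes GRP94, the HSP90 of the ER lumen, which folds integrins and Toll-like receptors. By the authors' deposited table Hsp90b1 (NM_011631) rose 1.26-fold, at a log2 fold change of 0.33 ± 0.06 SE (95% interval 0.22 to 0.44, adjusted p = 6.1e-08) at a base mean of 19344. Its UTR holds the 7mer-m8 site shown above. Dnajb9, a co-chaperone of BiP also called ERdj4 and a target of spliced XBP1, went the other way. Per the authors' deposited table Dnajb9 (NM_013760, base mean 2209) fell 1.19-fold, at -0.25 ± 0.07 SE (-0.40 to -0.10, adjusted p = 0.00377). The intervals of the log2 fold changes of these chaperone genes lie on opposite sides of 0.

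The transcription factors gave no usable change. Ddit3 encodes CHOP, a C/EBP family factor induced in prolonged stress. In the authors' deposited table its row NM_007837 had a base mean of 14.1 and a log2 fold change of -0.08 ± 0.39 SE (-0.84 to 0.68, adjusted p = 0.909). That interval includes each of the 5 changes that passed, so a change of their size was not detectable at this level. Atf4, the factor whose translation rises in the integrated stress response, had a base mean of 1.08 and a log2 fold change of 0.05 ± 0.22 SE with no adjusted p by the authors' deposited table (NM_009716). Its other row and both rows of Xbp1 were listed at 0.

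The ATF4 targets were all measured, and they split. Asns encodes asparagine synthetase, which makes asparagine and rises when amino acids are short. By the authors' deposited table Asns (NM_012055, base mean 16575) fell 1.26-fold, at -0.34 ± 0.07 SE (-0.48 to -0.20, adjusted p = 1.07e-05). Trib3 encodes a pseudokinase that binds ATF4 and CHOP and dampens their output. Per the authors' deposited table Trib3 (NM_175093, base mean 5514) fell 1.49-fold, at -0.58 ± 0.20 SE (-0.96 to -0.19, adjusted p = 0.0138). Chac1 encodes an enzyme that breaks down glutathione and is induced through ATF4 and CHOP. In the authors' deposited table Chac1 (NM_026929, base mean 3587) rose 1.38-fold, at 0.47 ± 0.09 SE (0.29 to 0.65, adjusted p = 4.51e-06). Asns and Trib3 on one side and Chac1 on the other have intervals that do not overlap, and all 3 promoters hold the C/EBP-ATF response element.

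The errors of these genes were unequal. The SE of Trib3, 0.20, was above that of 99.2% of the 1464 tested genes with a base mean within 2-fold of its own, whose median SE was 0.07. The SE of Chac1 was above that of 93.8% of 1943 such genes, that of Asns above 75.1% of 409, that of Dnajb9 above 24.2% of 2273 and that of Hsp90b1 above 16.5% of 333. Trib3 had the largest change among the 10 genes in size and the least certain of those that passed. Its interval runs from 1.14-fold to 1.95-fold lower, and without values per library it cannot be seen whether 1 library sets it.

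Levels between genes can be compared only per length. Per kilobase of the paired transcript, the base mean was 8283 for Asns and 6848 for Hsp90b1, above those of 97.8% and 97.4% of tested genes with a length. Trib3 followed at 2722, Chac1 at 2191 and Dnajb9 at 898, all above at least 81.8% of these genes. Ddit3 stood at 15.8, above 28.8%. These levels are means over both groups per the authors' deposited table, and whether neighbours in this order differ beyond their spread cannot be given.

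**Figure D3:**
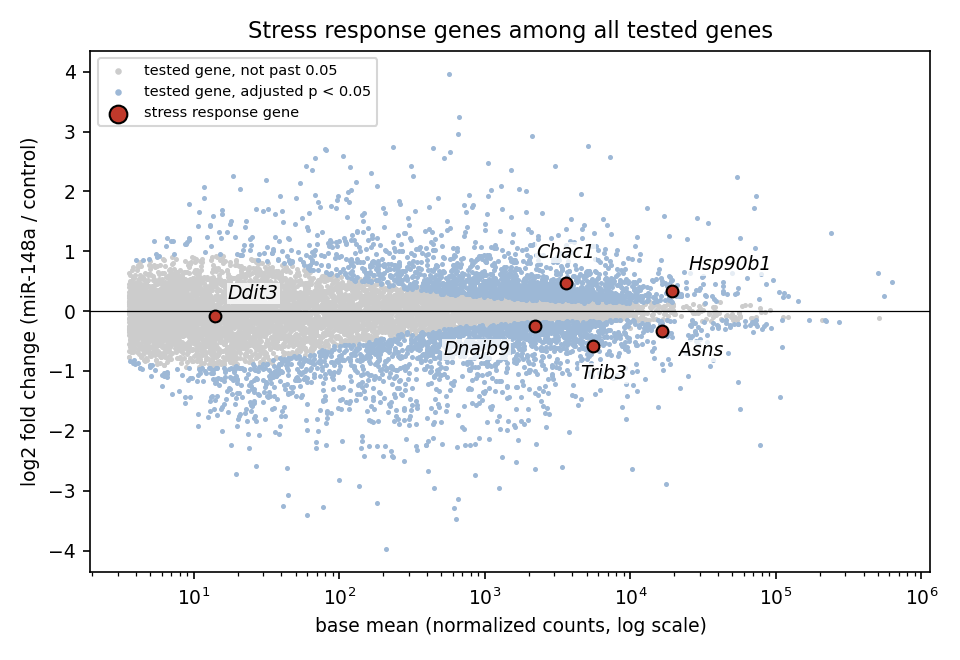
Each tested gene by its base mean (horizontal, normalized counts, log scale) and log2 fold change (vertical, miR-148a over control), both from the authors' deposited table. The 6 tested stress response genes, in red, lie between -0.58 and 0.47, inside the cloud of all genes; 5 of them have base means above 2000 and Ddit3 has one of 14.1.

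Further genes were read from 11 lists, of the wider pathway but also of cytosolic and mitochondrial stress and of the basement membrane. Pooled, they hold 171 genes, of which 134 were tested: 35 rose, 23 fell and 76 did not pass. Of the 134, 43.3% were called, against 33.5% of all tested genes and 49.7% of those at base means of 100 or more. Their median was 0.06 on the log2 scale against -0.01 for all tested genes. These pooled values are not those of the pathway alone. The other chaperones and folding enzymes of the ER were mostly higher. Of 16 tested, 9 rose, 2 fell and 5 did not pass (68.8% called), with a median of 0.26. By the authors' deposited table Hyou1, the large HSP70-like chaperone and exchange factor of BiP, rose by 0.43 ± 0.06 SE on the log2 scale (adjusted p = 2.26e-12). Uggt1, the sensor that sends misfolded glycoproteins back to the calnexin cycle, rose by 0.43 ± 0.07 SE, and Sdf2l1, a partner of ER HSP40 proteins, by 0.40 ± 0.10 SE by the authors' deposited table. Ero1b, an oxidase that drives disulfide formation, rose by 0.65 ± 0.22 SE at a base mean of 101 per the authors' deposited table. The 2 that fell by that table were Pdia3 (-0.31 ± 0.06 SE, base mean 16077), which holds a 7mer-m8, and Ppib (-0.20 ± 0.08 SE). Canx, which encodes calnexin, was listed at 0, and Pdia4, Sil1 and Hspa13 had no adjusted p.

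Genes of degradation and transport of ER proteins went both ways. In the list of ER-associated degradation 1 of 10 tested genes rose, 1 fell and 8 did not pass, at a median of 0.02. Called were 20%, below the 33.5% of all tested genes. The one that rose was Vcp, the ATPase that pulls proteins out of the ER membrane, at 0.39 ± 0.05 SE, and the one that fell was Edem1, a lectin that picks glycoproteins for degradation and a target of XBP1, at -0.23 ± 0.07 SE, by the authors' deposited table. Edem1 carries 2 7mer-m8 sites. Of 20 genes of translocation into the ER and export from it, 5 rose, 2 fell and 13 did not pass. Their median was 0.10, and the 35% called are near the 33.5% of all tested genes. Of all genes at base means of 100 or more 49.7% were called. Per the authors' deposited table the coat subunit Sec13 rose by 0.32 ± 0.07 SE, Srpr of the signal recognition receptor by 0.30 ± 0.06 SE and the cargo adaptor Sec24d by 0.26 ± 0.09 SE. Kdelr3, a receptor that returns escaped ER chaperones, fell 1.67-fold (-0.74 ± 0.14 SE, adjusted p = 7.04e-07) per the authors' deposited table.

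The genes of the sensors differed in direction. Ern1, of IRE1, was 2.12-fold lower with miR-148a (-1.08 ± 0.12 SE, adjusted p = 3.1e-19, base mean 699) in the authors' deposited table. Its UTR holds an 8mer and an overlapping 7mer-m8, shown above. Atf6, with a 7mer-m8, fell 1.25-fold (-0.32 ± 0.07 SE) by the authors' deposited table. Eif2ak3, of PERK, rose 1.52-fold (0.60 ± 0.09 SE, adjusted p = 9.51e-11) per the authors' deposited table, and it has 2 rows there. Of the 4 other membrane-bound factors listed that are cleaved like ATF6, those that fell were Creb3l1 by 2.32-fold (-1.21 ± 0.19 SE) and Creb3l2, which holds an 8mer, by 1.63-fold (-0.70 ± 0.13 SE) by the authors' deposited table. Creb3 (-0.05 ± 0.07 SE, adjusted p = 0.715) and Atf6b (0.07 ± 0.07 SE, adjusted p = 0.55), both at base means above 2000, did not pass by the authors' deposited table. In all, 1 of 9 tested genes of this list rose, 4 fell and 4 did not pass, at a median of -0.09. This is 55.6% called, against 33.5% of all tested genes and 49.7% of those at base means of 100 or more. Creb3l1 and Kdelr3 had base means of only 229 and 389.

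The eIF2 kinases and phosphatase subunits are the gate of the integrated stress response. Their list also holds subunits of eIF2 and of the exchange factor that reloads it, with Nck1 and Impact. Of its 15 tested genes 6 rose, 1 fell and 8 did not pass, at a median of 0.13. This is 46.7% called, against 33.5% of all tested genes and 49.7% of those at base means of 100 or more. Those that rose were Eif2ak2, Eif2ak3, Eif2s2, Eif2b1, Eif2b5 and Ppp1r15b. Eif2ak3 is also counted in the list of sensors. The subunits that direct the phosphatase to eIF2 went opposite ways per the authors' deposited table: Ppp1r15a (GADD34), which ATF4 induces, fell 1.40-fold (-0.48 ± 0.07 SE, adjusted p = 1.99e-11), and Ppp1r15b, which is made all the time, rose 1.46-fold (0.55 ± 0.07 SE, adjusted p = 2.93e-14). Eif2b5, a subunit of the exchange factor that reloads eIF2, rose by 0.38 ± 0.06 SE by the authors' deposited table. The amino acid sensor kinase gene Eif2ak4 (GCN2) had no adjusted p.

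Partner factors and effectors of ATF4 and CHOP were lower more often than higher. Of the 15 that were tested, 2 rose and 6 fell, while 7 missed the threshold (53.3% called), at a median of -0.24. Of all tested genes 33.5% were called (16.7% higher and 16.8% lower), and 49.7% of those at base means of 100 or more. Atf3, a stress-induced repressor, fell 2.54-fold (-1.34 ± 0.10 SE, adjusted p = 2.12e-39) and Nupr1, a stress-induced chromatin protein, 2.16-fold (-1.11 ± 0.07 SE, adjusted p = 1.14e-59) per the authors' deposited table. Gadd45a, with an 8mer, fell by 0.86 ± 0.12 SE on the log2 scale by the authors' deposited table. Ddit4 (REDD1), an inhibitor of mTORC1 that also answers to hypoxia and glucocorticoids, rose 1.58-fold (0.66 ± 0.06 SE, adjusted p = 1.9e-27) at a base mean of 23527 per the authors' deposited table, with a 7mer-m8 in its UTR. Atf5, a factor translated like ATF4, had a base mean of 8.62 and did not pass (0.53 ± 0.39 SE, adjusted p = 0.339) by the authors' deposited table.

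Of the amino acid enzymes and carriers that ATF4 controls, 16 were tested. Of these 1 rose, 3 fell and 12 missed the threshold (25% called, against 33.5% of all tested genes), at a median of -0.09. Cth, cystathionine gamma-lyase, had the largest change per the authors' deposited table, 2.63-fold lower (-1.39 ± 0.10 SE, adjusted p = 1.05e-38), and holds the 8mer shown above. In the authors' deposited table the glutamine carrier gene Slc1a5 fell by 0.54 ± 0.08 SE and the mitochondrial folate enzyme gene Mthfd2 by 0.26 ± 0.07 SE, while Phgdh, the first enzyme of serine synthesis, rose by 0.47 ± 0.07 SE. Of 13 aminoacyl-tRNA synthetases, several of which ATF4 also controls, 4 rose, 1 fell and 8 did not pass (38.5% called), at a median of 0.11. Those that rose by the authors' deposited table were Vars (0.49 ± 0.06 SE), Iars (0.31 ± 0.06 SE), Dars (0.27 ± 0.07 SE) and Gars (0.25 ± 0.06 SE). The C/EBP-ATF response element found in the promoter of Asns is also in those of 5 synthetases of the list. Iars and Gars rose, while Aars (0.11 ± 0.06 SE, adjusted p = 0.18) and Tars (0.01 ± 0.07 SE, adjusted p = 0.911) did not pass by the authors' deposited table. Yars was listed at 0 there. Over all the lists 15 genes hold this element. Those of them that passed were Iars and Gars, which rose, and Atf3 and Nupr1, which fell.

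**Figure D4:**
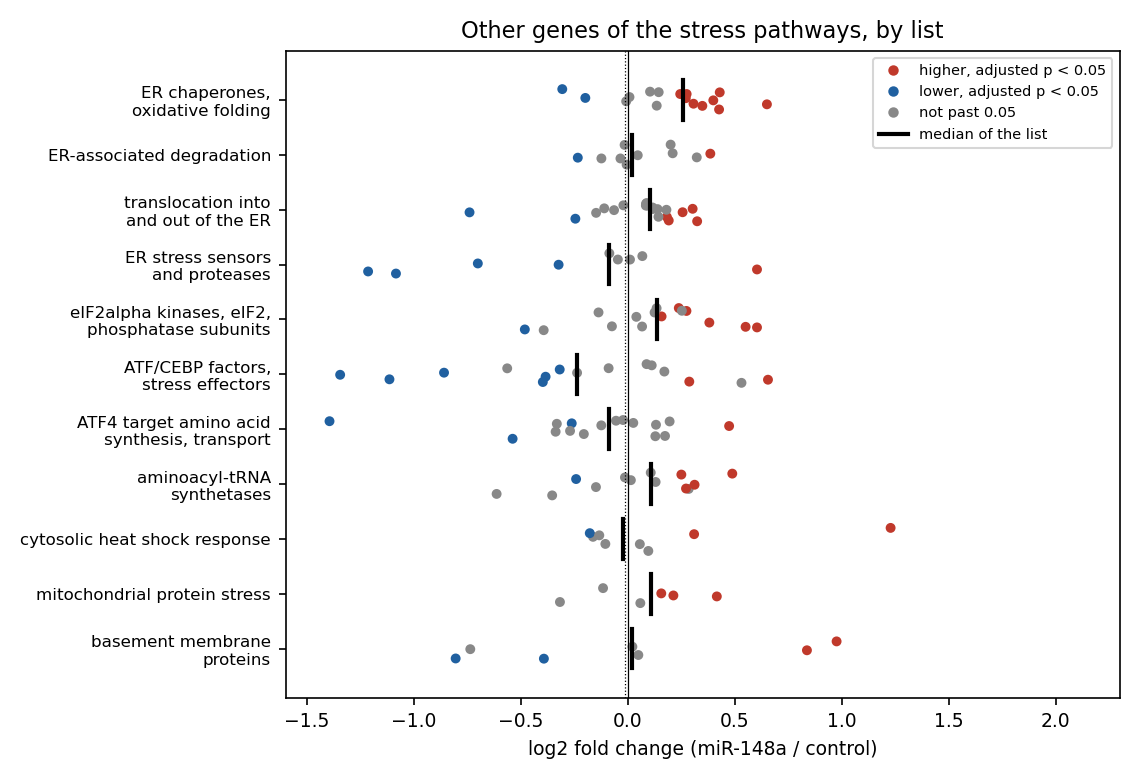
Log2 fold change (horizontal axis, miR-148a over control, from the authors' deposited table) of each tested gene of 11 lists (rows), red where higher and blue where lower at an adjusted p under 0.05 and grey otherwise; black bars are medians, and the dotted line is the median of all tested genes. The median of the ER chaperone list is 0.26 and that of the ATF/CEBP factors and effectors -0.24.

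Genes that share a promoter element with these 10 were read in the same way. Of the 37 genes with an ER stress response element in the promoter, 31 were in the table, 14 of these were listed at 0 and 14 were tested. Hsp90b1 and 3 others (Calr, Creld2 and Ero1b) rose and 10 did not pass (28.6% called, below the 33.5% of all tested genes), with a median of 0.14. Of the 10, 6 had base means under 50, and the 2 best counted, Pdia6 and Dnajc3, had log2 fold changes of 0.10 ± 0.07 SE and 0.14 ± 0.06 SE (adjusted p = 0.296 and 0.0535) per the authors' deposited table. With element II 7 genes were tested, of which 2 rose and 5 did not pass (28.6% called), at a median of 0.35. Of the 242 tested genes with a C/EBP-ATF response element, 29 rose, 56 fell and 157 did not pass (35.1% called, near the 33.5% of all tested genes), with a median of -0.11. The 242 include Trib3, Asns and Chac1. Without these, 28 of 239 rose and 54 fell, and the median was again -0.11. A match to these letters is a description and not a bound site.

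**Figure D5:**
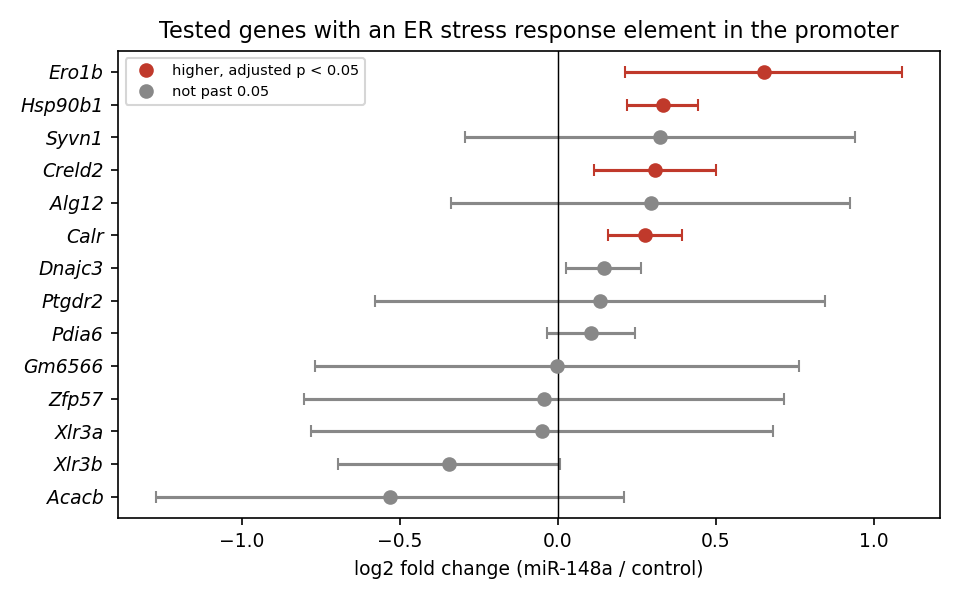
Log2 fold change (horizontal axis, miR-148a over control, from the authors' deposited table) with bars of 1.96 SE for the 14 tested genes whose promoter holds an ER stress response element, red where higher at an adjusted p under 0.05 and grey otherwise. The 4 that passed lie between 0.28 and 0.65.

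Sites for miR-148a were counted over the 10 genes and the lists together. Of 7 tested genes with an 8mer 5 fell (Ern1, Cth, Gadd45a, Creb3l2 and Bbc3) and 2 did not pass, at a median of -0.70. Among all 433 tested genes with an 8mer, 27.9% fell and 11.5% rose. Of 18 with a 7mer-m8 as the best site 4 fell (Pdia3, Edem1, Atf6 and Hspa1b). A further 3 rose (Hsp90b1, Ddit4 and Lonp1) and 11 did not pass, at a median of -0.05 over the 18. Their shares are near those of all 1131 tested genes with a 7mer-m8 as the best site, of which 19.5% fell and 15.6% rose. Because genes with sites bear on how the table's sign was read, these counts are not independent evidence that targets fell.

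Stress responses of other compartments were set beside that of the ER. In the cytosolic heat shock list 2 of 8 tested genes rose, 1 fell and 5 did not pass, at a median of -0.02. This is 37.5% called, against 33.5% of all tested genes and 49.7% of those at base means of 100 or more. By the authors' deposited table Hsp90aa1, the inducible cytosolic HSP90, rose 2.34-fold (1.23 ± 0.07 SE, adjusted p = 2.45e-62), against 1.26-fold for its ER relative Hsp90b1. Hspb1 rose by 0.31 ± 0.06 SE and Hspa1b, whose reads are hard to tell from those of its near-identical neighbour Hspa1a, fell by 0.18 (-0.18 ± 0.07 SE) by the authors' deposited table. Of 6 tested genes of the mitochondrial list 3 rose and 3 did not pass (50% called), at a median of 0.11. Those that rose were Clpp (0.42 ± 0.08 SE), Yme1l1 (0.21 ± 0.07 SE) and Lonp1 (0.16 ± 0.06 SE) per the authors' deposited table. Differences between the lists were not tested.

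Markers of other cell types moved in the same comparison. Over all tested genes 16.7% rose and 16.8% fell, and 49.7% of those at base means of 100 or more passed in either direction. Of 7 fibroblast markers 4 fell and 3 did not pass, at a median of -0.42 and with summed base means of 22857 over both groups. Pdgfra, Dcn and Lum, which did not pass, had base means of only 8.96, 9.85 and 75.6. Thy1 fell by 0.85 ± 0.12 SE on the log2 scale, Col3a1 by 0.53 ± 0.08 SE, Col1a2 by 0.43 ± 0.09 SE and Col1a1 by 0.42 ± 0.10 SE by the authors' deposited table. Fibroblasts secrete collagen through the ER and express the genes described here. Of 4 tested melanocyte markers 1 fell (Mlana, by 0.53 ± 0.14 SE) and 3 did not pass; per the authors' deposited table Dct (base mean 6493) and Pmel (base mean 8101) had log2 fold changes of -0.11 ± 0.06 SE and -0.04 ± 0.06 SE, and Tyrp1 was listed at 0. Of the 6 immune markers 2 were tested and both fell, by the authors' deposited table: Lyz2, of macrophages and neutrophils, at a log2 fold change of -2.63 ± 0.34 SE (adjusted p = 2.16e-13) and C1qa, of macrophages, at -2.72 ± 0.39 SE (adjusted p = 5.12e-11), at base means of 43.8 and 19.4. Ptprc, Cd74 and Cd207 were listed at 0 and Cd3e had no adjusted p. Of 4 endothelial markers Vwf alone was tested, and it fell by 0.81 ± 0.26 SE (adjusted p = 0.0069) at a base mean of 104 by the authors' deposited table, while Pecam1 and Tek were listed at 0 and Cdh5 had no adjusted p. The part of other cell types in the changes of the stress genes was not tested. Of 7 tested keratinocyte markers 1 rose, 3 fell and 3 did not pass, at a median of -0.18. Krt14, Itga6 and Col17a1, which did not pass, had base means of only 40.27, 6.50 and 32.04 per the authors' deposited table. By the authors' deposited table Krt5, a keratin of basal cells, rose by 0.49 ± 0.06 SE on the log2 scale (adjusted p = 1.9e-13), while Krt1 and Krt10, which mark differentiating cells, fell by 1.32 ± 0.18 SE and 0.88 ± 0.12 SE and the desmosome gene Dsp by 0.18 ± 0.06 SE. Their part was not tested either.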

How the data were processed

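Of 6 RNA sequencing libraries (3 per group), the authors' deposited table of 42885 RefSeq transcripts was used. Per the file headers it holds base means (signal, as mean normalized counts), log2 fold changes with standard errors, Wald scores and both raw and adjusted p-values. Per the submitters' processing notes, DESeq2 and mm9 were used, with no role or version named. Aligner, counter and annotation were not given in the sources used here. The authors' GO table, per the file headers, holds counts of genes per category and p-values. Depth per library is unknown, so no counting interval is given.

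No differential test could be fitted, and the authors' adjusted p (0.05) stands in for one. Accessions were paired with symbols (RefSeq, GRCm38.p6; 42739 of 42885), and each gene took its tested row of highest base mean (11038 genes). No table coordinates are given, since mm9 differs from GRCm38; promoter coordinates are those of GRCm38.p6. Transcript lengths and 3' UTRs (at least 20 bases) came from GENCODE M21. The members and the lists were chosen with earlier results of these data known. Named were all members; from each list up to 4 genes that passed, at base means of 100 or more and with the largest changes (or, where fewer than 2 passed, the 2 most abundant); and Ern1, Eif2ak3, Atf6, Eif2ak4, Ppp1r15a, Atf3 and Atf5. Bbc3, Calr, Creld2, Pdia6, Dnajc3, Creb3, Atf6b, Aars, Tars, Yars, Mlana, Lyz2, C1qa and the motifs and promoter groups were chosen after values were seen. So were Pdia3, Ppib, Eif2ak2, Eif2s2, Eif2b1, Nck1, Impact, Krt14, Itga6, Col17a1, Pdgfra, Dcn and Lum. Alternatives changed the row per gene, the threshold, a minimum fold, a minimum base mean, centring and the set adjusted over. A recentred Wald test was tested on simulated data. Python 3.11.15, pandas 2.3.3, NumPy 2.4.6, SciPy 1.17.1 and matplotlib 3.10.9 were used.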

Additional observations from a re-analysis of the deposited data

How the results depend on the processing

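Of 174 alternative values, 141 stayed within 1.5 times the count, or on the same side of the threshold, and none of the log2 fold changes of the 6 tested members changed direction. With at least 1.5-fold required, 0 members passed (0 higher, 0 lower), and over the lists 6 genes were higher and 9 lower. By list this left, as higher and lower, 1 and 0 ER chaperones, 0 and 0 degradation genes and 0 and 1 translocation genes. It also left 1 and 3 sensor genes, 1 and 0 eIF2 genes, and 1 and 3 partner factors and effectors. Of the others, 0 and 1 amino acid genes, 0 and 0 tRNA synthetases and 1 and 0 heat shock genes were left. The mitochondrial list kept 0 and 0 and the basement membrane list 2 and 1. Eif2ak3 is counted under both the sensor and the eIF2 genes. At an adjusted p of 0.01, 4 members passed (2 higher, 2 lower), since Trib3 no longer did. Over the lists 26 genes were then higher and 20 lower. By list, the counts that moved beyond 1.5 times were 1 ER chaperone lower and 3 translocation genes, 3 eIF2 genes and 1 effector higher. So did those of the heat shock list, with 0 genes lower, and of the basement membrane list, with 1 gene lower. Recentred on the median of tested genes, 2 amino acid genes were higher and 1 basement membrane gene was lower. With genes of 1 row alone, an alternative chosen after seeing the data, 0 sensor genes were higher and 1 basement membrane gene was lower, since fewer genes were tested. Counting every row of a member, or adjusting over all rows with a p-value, left 2 members higher and 3 lower. No paired analysis was possible because the tables have no values per library; leaving out a replicate was not run for the same reason.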

Other observations

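Genes of the basement membrane, whose large secreted proteins fold in the ER, were also listed. Of 7 tested genes 2 rose, 2 fell and 3 did not pass, at a median of 0.02. The 57.1% called compare with 33.5% of all tested genes and 49.7% of those at base means of 100 or more. In the authors' deposited table the laminin gene Lama5 rose by 0.98 ± 0.09 SE and the collagen gene Col4a2 by 0.84 ± 0.08 SE on the log2 scale. The anchoring fibril collagen gene Col7a1 fell by 0.80 (-0.80 ± 0.07 SE) and Lama3, at a base mean of 254, by 0.39 (-0.39 ± 0.16 SE) in the authors' deposited table. The authors' deposited GO table of 951 categories names neither the unfolded protein response nor ER stress; its category of the endoplasmic reticulum counts 8 changed genes of 70, with an adjusted p of 1 in that table.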
